A study of Mus musculus with 10 samples.

Results

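Mstn, Il6, Bdnf, Igf1, Fndc5, Metrnl, Il15, Apln, Fst and Vegfa are 10 genes for secreted factors that skeletal muscle is known to release or to respond to. They were chosen by name, as all gene probes whose RefSeq accession maps to one of the symbols. This gave 15 probes for the 10 genes, of 26056 probes for 19752 named genes on the array. Each gene is given by its brightest probe, and the other probes of Igf1, Metrnl and Vegfa are given where they disagree.

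RNA was measured on single-colour Agilent mouse arrays in 5 groups of 2 samples, and all mice were C57BL/6J males of unstated age. Transgenic muscle after AP20187 came from hSA::Fv2E-PERK mice injected with 1 ng/g of the compound and collected after 12 h. Transgenic muscle after vehicle came from mice of the same genotype injected with the ethanol, PEG-400 and Tween-20 carrier, also collected after 12 h. Wild type muscle came from mice with neither transgene nor injection, so that transgene and vehicle injection cannot be told apart in a comparison with it. C2C12-Fv2E-PERK cells were expanded with 10% fetal bovine serum and then kept for 3 days with 2% horse serum. They received AP20187 at 100 nM or ethanol, and were harvested after 12 h. C2C12 is a mouse myoblast line that fuses into myotubes in low serum, and there was no C2C12 group without the fusion. Fv2E-PERK joins the kinase domain of PERK to a domain that pairs when AP20187 binds it, and paired PERK phosphorylates the translation factor eIF2alpha. The hSA (human skeletal actin) promoter drives expression in muscle fibres. Neither the muscle sampled nor whether the C2C12 line is 1 clone is given in the labels. Nothing in the labels says that the 2 samples of a group came from separate animals or cultures, so p-values measure only the spread between these samples.

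Myokines are signals that muscle fibres secrete to act on themselves, on neighbouring cells or on distant organs. Myostatin, the product of Mstn, limits muscle growth through activin receptors, and follistatin, the product of Fst, binds and blocks it. IGF-1 promotes growth through its own receptor. IL-6 and IL-15 are cytokines, BDNF is a neurotrophin, FNDC5 is the membrane precursor of the peptide irisin, METRNL is a meteorin-like hormone, apelin acts through the receptor APLNR, and VEGF-A is the main growth factor for blood vessels.

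A level below is the log2 of the background-subtracted intensity of a probe minus the 75th percentile of all gene probes on that array, so that 0 is the percentile itself. Levels of different genes come from different probes and are not set against each other. A probe counts as detected on an array where the scanner software marked it well above background, as it did for 41.0% to 53.1% of gene spots per array. Changes are differences of log2 levels with their standard error (SE), tested with limma over all genes of the fit. A change is called where the p, adjusted over all these genes by the Benjamini-Hochberg method, is under 0.05. Both transgenic groups shared a slide in the scanner headers, wild type lay on another slide scanned separately, and C2C12 was scanned separately again. The headers give C2C12 and transgenic arrays 1 slide identifier and repeat 2 positions between them, so the identifier or the positions of one set cannot be right. By these headers the AP20187 arrays of C2C12 lay in another row of the slide than the vehicle arrays, so row and treatment cannot be told apart there. Transgenic vehicle replicate 2 was the only transgenic array in its row, so a block by slide row in the muscle fits takes out that array alone. Ddit3, a target of the PERK pathway that encodes CHOP, was 8.79-fold higher after AP20187 in transgenic muscle (log2 change 3.14, SE 0.13, adjusted p = 4.49e-05) and 3.75-fold higher in transgenic vehicle than in wild type muscle. In C2C12 the log2 change of Ddit3 was 0.52 (SE 0.14, adjusted p = 0.110). Eif2ak3, the gene for PERK, passed neither AP20187 test (adjusted p = 0.586 in muscle and 0.468 in C2C12), but no source used here places its probe inside or outside the part held in the fusion. All 9 markers of mature fast fibres were detected on every muscle array, 8 on both C2C12 vehicle arrays and 7 on both C2C12 AP20187 arrays. Spots flagged as outliers were left out and counted as not detected. In C2C12 this took out 1 fibre marker value after vehicle and 3 after AP20187, all of Tnnt3 or Actn3, which is the whole shortfall. All 6 immature myotube markers were detected on every muscle array, 5 on both C2C12 vehicle arrays and 3 on both C2C12 AP20187 arrays. Myh3 and Mymk had no value on either C2C12 AP20187 array, and 1 value of this list was missing after vehicle, again for flagged spots. Of 4 satellite cell markers, Pax7, Myf5 and Calcr were not well above background on any C2C12 array, while Cdh15 was on all of them. Myf5 was not well above background on any muscle array either.

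RefSeq promoter windows were found for 8 of the 10 genes (not Il15 and Fst), 15 windows in all because Bdnf and Vegfa have several starts. Mstn and Il6 are printed here because they were detected in muscle but not C2C12 (Mstn) and in C2C12 but not muscle (Il6). The 250 bases before each start were searched on both strands for 5 motifs. CANNTG is the E-box, bound by MyoD and related muscle factors. TATAAA is a TATA box. GGGANNTTC is the core of an NF-kappaB motif. TGATGNAA is shared by sites of ATF4 and CHOP. TGACGTCA is the site of CREB and ATF factors. The Mstn window, chr1:53061390-53061639 of GRCm38.p6 on the plus strand, held 4 E-box matches, starting 229, 174, 52 and 19 bases upstream, and a TATA box match at 29. The Il6 window, chr5:30012864-30013113 of GRCm38.p6 on the plus strand, held GGGATTTTC at 44 bases upstream and an E-box match at 51. Capitals mark these matches, none of which overlap.
Mstn: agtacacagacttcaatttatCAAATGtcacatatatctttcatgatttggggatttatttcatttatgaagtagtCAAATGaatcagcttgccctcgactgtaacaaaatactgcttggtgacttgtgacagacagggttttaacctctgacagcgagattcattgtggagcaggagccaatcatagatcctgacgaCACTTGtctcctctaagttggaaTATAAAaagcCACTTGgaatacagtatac
Il6: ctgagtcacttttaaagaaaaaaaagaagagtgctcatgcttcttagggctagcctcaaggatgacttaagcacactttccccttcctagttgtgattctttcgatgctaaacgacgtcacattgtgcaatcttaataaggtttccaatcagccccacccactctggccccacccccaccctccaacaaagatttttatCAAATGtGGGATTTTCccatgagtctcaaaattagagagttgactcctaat
Of all 32851 RefSeq windows of this length, 66.2% held an E-box, 12.4% the TATA box and 3.23% the NF-kappaB core. None of the 15 windows held the ATF4 and CHOP motif or the CREB motif, which occur in 3.45% and 1.55% of all windows. The array files give no probe sequences.

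Detection split the genes into those found in both systems and those found in only muscle or only C2C12. Mstn and Il15 were detected on 6 of 6 muscle arrays and on 0 of 4 C2C12 arrays, Il6 on 0 of 6 muscle arrays and on 4 of 4 C2C12 arrays, and the other 7 genes on all 10 arrays. The comparison of transgenic muscle with C2C12, both after vehicle, called 9 of the 10 genes, 4 higher and 5 lower in muscle. The same comparison called 78.6% of all 14094 genes tested (40.6% higher, 38.0% lower). The groups did not overlap for 9 of the 10 genes, against 88.2% of all genes, so that both shares stand near the background. Mstn, Il15 and Il6 entered this test only through the system where they were bright. Of the 7 genes detected in both, 6 were called, 2 higher and 4 lower in muscle. Tissue, culture and scan cannot be told apart here, nor can fewer cells of a type and less RNA per cell in any of these bulk samples.

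**Figure D1:**
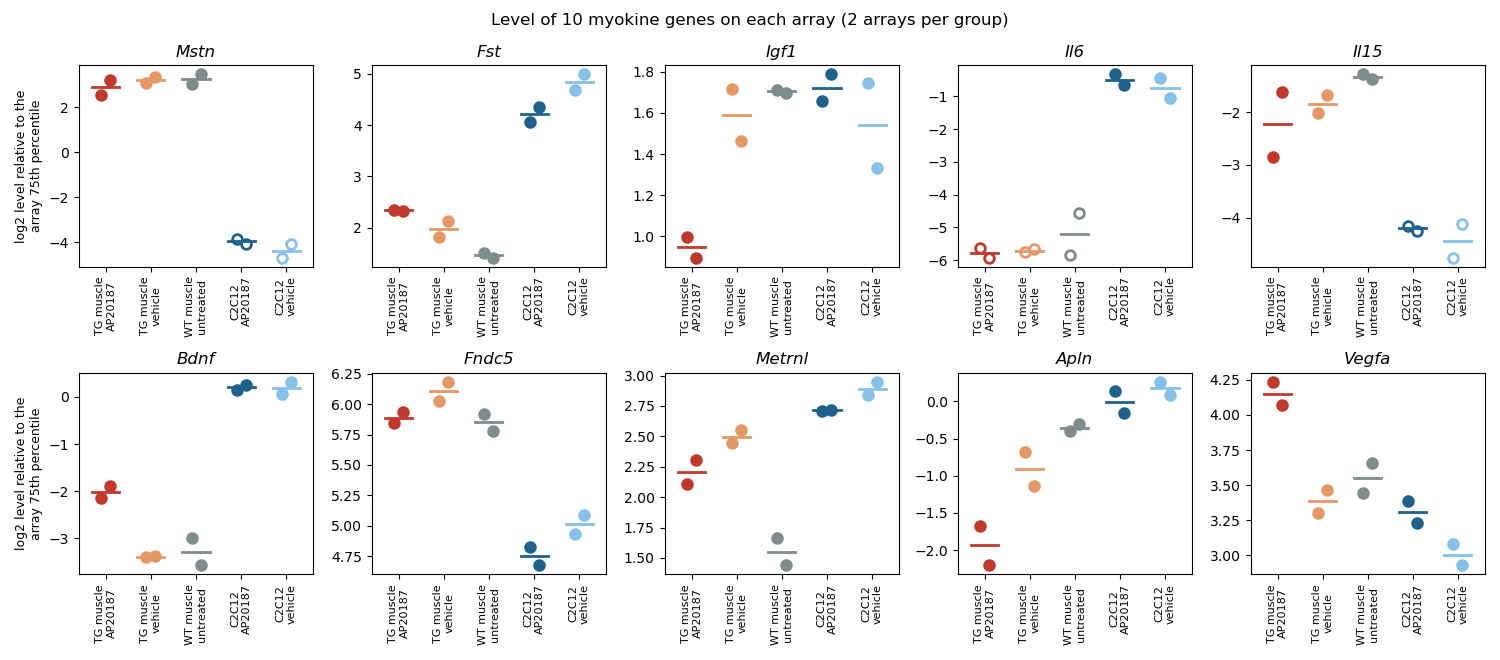
Log2 level of each gene above or below the array's 75th percentile, with 1 point per array, a line at the mean of each group of 2, and open points where the probe was not well above background on both arrays. Mstn and Il15 are open in C2C12 and Il6 is open in muscle. Igf1 and Apln lie lowest, and Vegfa highest, on the transgenic AP20187 arrays.

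Mstn had levels of 2.56 and 3.21 in transgenic muscle after AP20187, 3.08 and 3.36 after vehicle and 3.03 and 3.46 in wild type muscle. The 3 muscle groups overlapped. In C2C12 its probe read -3.84 and -4.08 after AP20187 and -4.68 and -4.06 after vehicle, none of them well above background. Mstn was therefore at least 55.9-fold higher in transgenic vehicle muscle than in C2C12 vehicle, where the C2C12 side is the higher, on each array, of the probe's own value and the lowest signal among probes well above background. The measured means were 3.22 in muscle and -4.37 in C2C12 (adjusted p = 7.79e-10). With normexp background correction, which adds an offset of 50, the log2 difference was 4.36 in place of 7.58, less than this bound.

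Il6 was the opposite case. Its levels in muscle, -5.64 and -5.93 after AP20187, -5.75 and -5.68 after vehicle and -5.86 and -4.56 in wild type, were all below the detection mark. C2C12 arrays read -0.33 and -0.64 after AP20187 and -0.45 and -1.06 after vehicle. Il6 was at least 7.66-fold lower in transgenic vehicle muscle than in C2C12 vehicle (means -5.71 and -0.76, adjusted p = 1.97e-06). With normexp the log2 difference was -1.35 in place of -4.96, again less than the bound. Il15, the other cytokine gene, lay at -2.85 and -1.61 in transgenic muscle after AP20187, -2.01 and -1.67 after vehicle and -1.29 and -1.37 in wild type. Both wild type arrays were above all transgenic arrays, and the AP20187 pair was spread the widest of the 3 muscle groups. Il15 was at least 1.68-fold higher in transgenic vehicle muscle than in C2C12 vehicle, where its probe read -4.76 and -4.13 (adjusted p = 0.000139). With normexp its log2 difference was 0.75 in place of 2.60.

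Bdnf and Fst were lower in transgenic vehicle muscle than in C2C12 vehicle, by 3.57 (SE 0.25, adjusted p = 1.74e-07) and 2.85 (SE 0.15, adjusted p = 1.38e-08) on the log2 scale. In linear terms these are 11.9-fold and 7.23-fold. With normexp the log2 change of Bdnf was -1.76. Apln was 2.12-fold lower in muscle (log2 change -1.08, SE 0.23, adjusted p = 0.00123), with -0.57 under normexp. Fndc5 was 2.13-fold higher in muscle (log2 change 1.09, SE 0.11, adjusted p = 2.48e-06), and its lowest muscle array, at 5.78, stood above its highest C2C12 array, at 5.09. With quantile normalization its change was 0.57. Metrnl was 1.32-fold lower in muscle (adjusted p = 0.00947) and Vegfa 1.30-fold higher (adjusted p = 0.0122). The Metrnl call was lost without transgenic vehicle replicate 1 or C2C12 vehicle replicate 2 (log2 change -0.34 for each). Its change was -0.75 with both probes averaged, but the second probe was not well above background on any array. The Vegfa call was lost under quantile normalization, where the percentile was taken over detected probes, and with its 2 probes averaged (log2 change 0.10 at the lowest). It was also lost with the slide row as a block or without transgenic vehicle replicate 2, which take out the same array. Without C2C12 vehicle replicate 2 it was lost as well (0.30 at the lowest of these). Igf1 had means of 1.59 in transgenic vehicle muscle and 1.54 in C2C12 vehicle, with a log2 change of 0.05 (SE 0.15, adjusted p = 0.782).

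With AP20187 in transgenic muscle, Bdnf and Vegfa rose and Igf1 and Apln fell. These are 4 of the 9 genes tested, against 26.9% of all 13543 genes tested in the comparison, and 2 higher and 2 lower compare with 15.5% and 11.5% of all genes. The 2 groups did not overlap for 7 of the 9, against 66.4% of all genes. The median log2 change was -0.29 over the 9 genes and -0.07 over all genes.

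Vegfa had levels of 4.24 and 4.07 after AP20187, 3.30 and 3.47 after vehicle and 3.44 and 3.66 in wild type muscle. Both AP20187 arrays lay above all 4 other muscle arrays. The change over vehicle was 1.70-fold (log2 change 0.77, SE 0.12, adjusted p = 0.00365), and it passed under every alternative that was run, at 0.36 to 0.85. The second Vegfa probe, which carries another RefSeq transcript accession of the gene, showed no such rise. It read 1.08 and 1.07 after AP20187 and 1.14 and 1.101 after vehicle, a log2 change of -0.04 (SE 0.09), and stayed between 1.02 and 1.14 on all 10 arrays. The rise is thus a result of 1 probe of 2.

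Igf1 had levels of 1.00 and 0.90 after AP20187, 1.72 and 1.46 after vehicle and 1.71 and 1.70 in wild type muscle. The AP20187 arrays were the lowest of all 10 arrays. The fall was 1.56-fold (log2 change -0.64, SE 0.12, adjusted p = 0.00795) and passed under every alternative that was run, at -0.77 to -0.51. All 4 Igf1 probes were lower after AP20187, with log2 changes of -0.64, -0.53, -0.59 and -0.40. Macrophages, another source of IGF-1 in muscle, had lower marker levels in the same samples. Of 9 macrophage and leucocyte markers tested 8 were lower after AP20187, against 11.5% of all genes. The summed linear level of the markers was 19.4 to 21.3 after AP20187 and 32.9 to 35.8 after vehicle, in multiples of the 75th percentile. Their part in the Igf1 change was not tested.

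**Figure D2:**
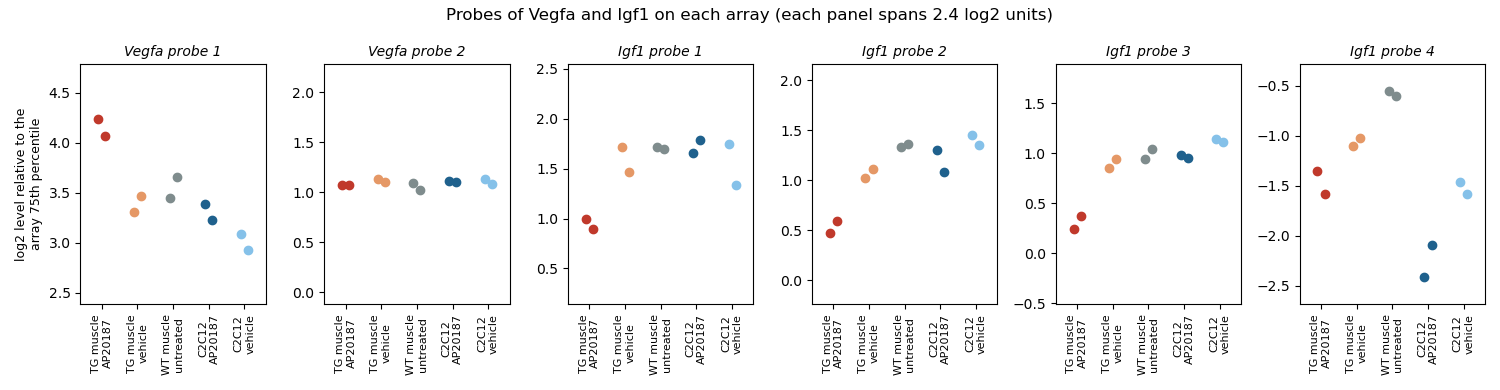
Log2 level on each array for the 2 probes of Vegfa and the 4 probes of Igf1, numbered from the brightest, with 1 point per array and the same span on every vertical axis. Vegfa probe 1 is highest on the transgenic AP20187 arrays while probe 2 stays level, and all Igf1 probes are lower there than after vehicle. In C2C12 every Igf1 probe but probe 1 is lower after AP20187 without overlap, while probe 1 overlaps between the groups.

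Bdnf was dim in muscle, with levels of -2.14 and -1.88 after AP20187, -3.39 and -3.37 after vehicle and -2.99 and -3.57 in wild type. The AP20187 arrays stood above the other 4 muscle arrays. The rise was 2.59-fold (log2 change 1.37, SE 0.29, adjusted p = 0.0130). It shrank to 0.37 with another background correction and lost its call with the slide row as a block or without AP20187 replicate 2 (adjusted p of 0.0644 at the highest).

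Apln fell to -1.67 and -2.20 after AP20187, against -0.68 and -1.14 after vehicle, and wild type muscle read -0.40 and -0.31. The 3 muscle groups followed one another without overlap. The fall with AP20187 was 2.04-fold (log2 change -1.03, SE 0.23, adjusted p = 0.0154). It lost its call without vehicle replicate 1 or without AP20187 replicate 2 (adjusted p of 0.0747 at the highest), and was -0.54 with normexp. Endothelium also makes apelin, and 0 of its 8 markers passed the test with AP20187 by limma, and 0 had an unadjusted p under 0.05. Their summed level was 58.2 to 62.0 after AP20187 and 55.4 to 56.3 after vehicle, and their part in the Apln change was not tested.

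The other 5 genes tested did not pass. Fst read 2.33 on both AP20187 arrays, 1.82 and 2.14 after vehicle and 1.50 and 1.41 in wild type. Its log2 change with AP20187 was 0.36 (SE 0.13, adjusted p = 0.0717). It passed with the slide row as a block or without vehicle replicate 2, which take out the same array (0.52 for each), and with normexp background correction. Metrnl had levels of 2.11 and 2.31 after AP20187 and 2.44 and 2.55 after vehicle (log2 change -0.29, adjusted p = 0.115). Fndc5 had 5.84 and 5.93 after AP20187 and 6.03 and 6.18 after vehicle (log2 change -0.22, adjusted p = 0.141). The groups did not overlap for either. Mstn (log2 change -0.33, SE 0.23, adjusted p = 0.308) and Il15 (-0.39, SE 0.37, adjusted p = 0.456) overlapped between the groups. Il15 passed without AP20187 replicate 2 (adjusted p = 0.0376). The summed level of 7 fast fibre markers was 7613 to 8584 after AP20187 and 10440 to 10593 after vehicle. By the test 2 of 9 fibre markers were lower, against 11.5% of all genes. Their part in the values of Mstn, Fndc5 and Metrnl was not tested. Il6 was not tested in muscle.

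**Figure D3:**
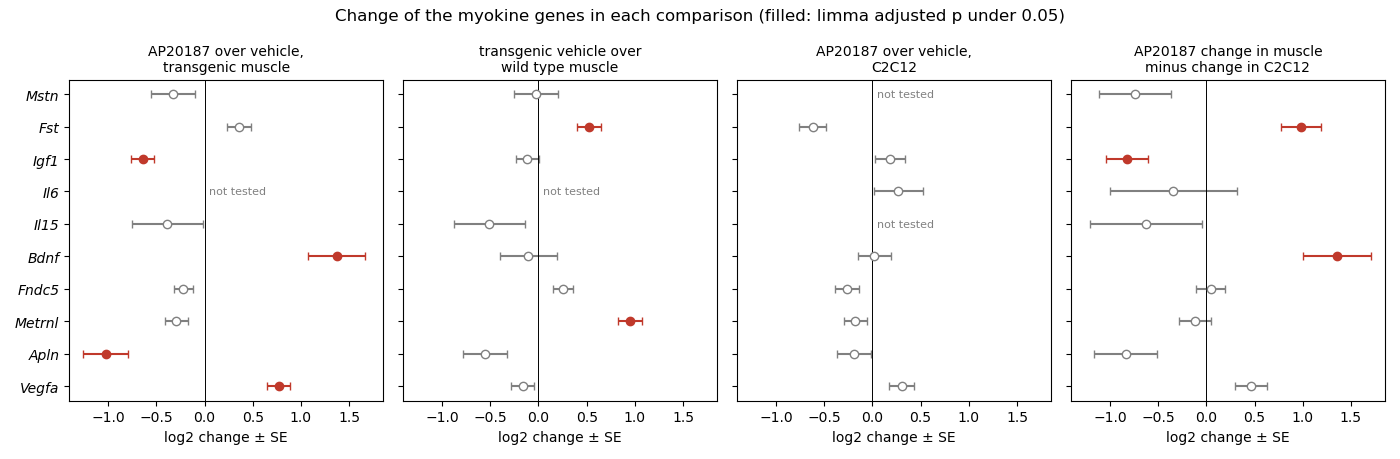
Log2 change with its SE for each gene in 4 comparisons, filled where the limma adjusted p was under 0.05. With AP20187 in transgenic muscle 4 genes are filled, between transgenic vehicle and wild type muscle 2, in C2C12 0, and for the difference between the muscle and C2C12 changes 3.

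Metrnl and Fst were higher in transgenic muscle after vehicle than in untreated wild type muscle. These were 2 of 9 genes tested, both higher, against 37.6% of all 13543 genes (24.3% higher, 13.3% lower). Over all genes 3290 were higher and 1796 lower, against 2245 and 2732 with the percentile taken over detected probes and 2600 and 2321 with quantile normalization. The groups did not overlap for 5 of the 9, against 71.3% of all genes. Metrnl had levels of 2.44 and 2.55 in transgenic vehicle muscle, against 1.66 and 1.44 in wild type muscle. All 4 transgenic arrays, with or without AP20187, lay above both wild type arrays. The rise was 1.93-fold (log2 change 0.95, SE 0.12, adjusted p = 0.00111). The second Metrnl probe was not well above background on any array, and the mean of the 2 probes changed by 0.37 (adjusted p = 0.259).

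Fst had levels of 1.82 and 2.14 in transgenic vehicle muscle, against 1.50 and 1.41 in wild type muscle, a rise of 1.43-fold (log2 change 0.52, SE 0.13, adjusted p = 0.0149). The groups were apart, and the AP20187 arrays lay higher still. The call was lost with the slide row as a block or without transgenic vehicle replicate 2, which take out the same array, and without wild type replicate 2. Of 6 immature myotube markers, genes that regenerating or denervated fibres also express, 5 were higher and 1 was lower in transgenic vehicle muscle. The shares over all genes were 24.3% and 13.3%. The summed level of the 4 markers with a value on every array was 50.4 to 62.8 in transgenic vehicle muscle and 57.3 to 64.7 in wild type muscle. The part of these markers in the Fst change was not tested.

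Apln and Fndc5 came nearest among the genes that did not pass. Apln had a log2 change of -0.56 (SE 0.23, adjusted p = 0.0919) in transgenic vehicle over wild type muscle, and Fndc5 of 0.25 (SE 0.10, adjusted p = 0.0818). Apln passed with only the 2 groups in the fit (adjusted p = 0.0473), and Fndc5 with normexp (adjusted p = 0.0440). Il15 had -0.51 (SE 0.37, adjusted p = 0.305). Mstn, Bdnf, Igf1 and Vegfa overlapped between the groups, with log2 changes of -0.02, -0.10, -0.12 and -0.16. Slide and scan cannot be told apart from genotype in these values.

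In C2C12 no myokine gene passed the test with AP20187. The count was 0 of 8 genes tested, against 0.640% of all 11409 genes, and 2 of the 8 had an unadjusted limma p under 0.05. Arrays of the groups did not overlap for 4 of the 8, against 46.6% of all genes. Fst had the smallest p, with 4.06 and 4.36 after AP20187 and 4.68 and 4.99 after vehicle and a log2 change of -0.62 (SE 0.14, adjusted p = 0.0758). It passed with normexp background correction, without a filter on dim probes, and without C2C12 vehicle replicate 1 or AP20187 replicate 2. Vegfa had 3.39 and 3.23 after AP20187 and 3.08 and 2.93 after vehicle (log2 change 0.30, SE 0.13, adjusted p = 0.281), and its groups did not overlap. Fndc5 had 4.83 and 4.68 after AP20187 and 4.94 and 5.09 after vehicle (log2 change -0.26, adjusted p = 0.335).

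None of the other C2C12 values passed. Metrnl changed by -0.18 (SE 0.12, adjusted p = 0.507) without overlap, while the groups of Il6 (0.27, SE 0.25), Igf1 (0.18, SE 0.15), Apln (-0.19, SE 0.18) and Bdnf (0.02, SE 0.17) overlapped on the log2 scale. Bdnf read 0.15 and 0.26 after AP20187 and 0.06 and 0.32 after vehicle. Mstn and Il15 were not tested. Of 7 adipocyte markers, 6 were tested and 4 were higher after AP20187 in the same cells, against 0.333% of all genes. All 6 entered this test only through the AP20187 arrays, where they were bright. After vehicle 0 of the markers were well above background on both arrays. Adipoq, Lep and Cidec were so on neither vehicle array, and the others on 1 of the 2. The summed level of all 7, including Lep, which was not well above background on any C2C12 array, was 8.96 to 12.7 after AP20187 and 0.929 to 1.22 after vehicle. By the same test 2 of 8 fast fibre markers were lower after AP20187 in C2C12, against 0.307% of all genes. The summed level of 7 fibre markers was 405 to 453 after AP20187 and 506 to 558 after vehicle. The part of the adipocyte and fibre markers in the C2C12 values was not tested.

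The AP20187 change in muscle minus that in C2C12 was tested as its own contrast over all 10 arrays. It called 3 of 10 genes (2 higher, 1 lower), against 13.0% of all 14094 genes (9.68% higher, 3.35% lower). Over all genes 1364 were higher and 472 lower, against 822 and 997 with the percentile taken over unflagged probes and 1020 and 708 with it taken over detected probes. Fst differed by 0.98 (SE 0.21, adjusted p = 0.0129), from changes of 0.36 in muscle and -0.62 in C2C12, neither of which passed alone. This difference passed under every alternative that was run, at 0.79 to 1.14. Bdnf differed by 1.35 (SE 0.35, adjusted p = 0.0323), from changes of 1.37 and 0.02. Igf1 differed by -0.82 (SE 0.21, adjusted p = 0.0320), from changes of -0.64 and 0.18.

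The Bdnf and Igf1 differences were less firm. Bdnf lost its call under 11 of 22 alternatives and Igf1 under 9 of 22. Both lost it without transgenic vehicle replicate 1, either transgenic AP20187 array, C2C12 vehicle replicate 2 or either C2C12 AP20187 array, and Bdnf also without transgenic vehicle replicate 2. The slide row as a block, which takes out that same array, is counted apart among the losses of Bdnf. Without each of these arrays the difference was 1.22 to 1.48 for Bdnf and -0.89 to -0.62 for Igf1. With normexp background correction it was 0.37 for Bdnf and -0.51 for Igf1, and with all Igf1 probes averaged -0.31, none of them called. The 4 Igf1 probes differed by -0.82, -0.32, -0.43 and 0.33, so that they disagree in direction in this contrast. In C2C12 the brightest of them changed by 0.18 (SE 0.15), and the others by -0.21 (SE 0.15), -0.16 (SE 0.16) and -0.73 (SE 0.45). Vegfa (0.46, SE 0.17, adjusted p = 0.0976) and Apln (-0.84, SE 0.33, adjusted p = 0.122) did not pass, though Vegfa did with normexp (0.72, adjusted p = 0.0132). For Mstn (-0.74), Il15 (-0.62) and Il6 (-0.34) one side of the contrast was not well above background.

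Ranked by group mean, the 7 genes detected in both systems gave several orders. Fst ran C2C12 vehicle, C2C12 AP20187, transgenic AP20187, transgenic vehicle, wild type, with no overlap between any neighbours. Metrnl ran C2C12 vehicle, C2C12 AP20187, transgenic vehicle, transgenic AP20187, wild type, again with no overlap. Apln ran C2C12 vehicle, C2C12 AP20187, wild type, transgenic vehicle, transgenic AP20187, and only the 2 C2C12 groups overlapped. Bdnf ran both C2C12 groups, which overlapped, then transgenic AP20187, then wild type and transgenic vehicle, which overlapped. Vegfa ran transgenic AP20187, then wild type, transgenic vehicle and C2C12 AP20187, each overlapping the next, then C2C12 vehicle. Igf1 overlapped among its 4 upper groups, with transgenic AP20187 apart at the bottom. Fndc5 ran transgenic vehicle, then transgenic AP20187 and wild type, which overlapped, then C2C12 vehicle and C2C12 AP20187, apart.

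Receptors and signalling genes around these factors were read from 7 lists of 93 genes. With AP20187 in transgenic muscle 11 of 78 tested were higher and 9 lower (25.6%), near the share of all genes. Over all genes 15.5% were higher and 11.5% lower, and the counts per list below stand beside these shares. Without transgenic vehicle replicate 2, the array in a row of its own, 6 were higher and 4 lower, and without any other transgenic array 11 to 13 passed in all. Il6ra, the receptor chain that binds IL-6, read 2.98 and 3.70 after AP20187 and 1.46 and 1.54 after vehicle. The groups were apart, and the rise was 1.84 on the log2 scale (SE 0.21, adjusted p = 0.00120), while its ligand gene was not detected there. Il6st, the shared signalling chain, changed by 0.25 (adjusted p = 0.138).

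Of 12 IGF axis genes 2 rose and 1 fell with AP20187. Igf1r, the IGF-1 receptor, rose by 1.08 (SE 0.22, adjusted p = 0.0105), with levels of 1.36 and 0.87 after AP20187 and 0.32 and -0.25 after vehicle. Irs2, an adaptor of the insulin and IGF receptors, rose by 1.67 (SE 0.15, adjusted p = 0.000584), to 3.81 and 3.43 after AP20187, against 2.07 and 1.83 after vehicle. Wild type muscle read 3.40 and 3.60, so that the AP20187 and wild type arrays overlapped for Irs2. The IGF-binding protein gene Igfbp6 fell by 0.36 (adjusted p = 0.0288).

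Among 14 genes of the myostatin and activin axis 3 rose and 0 fell with AP20187. They were Smad7, an inhibitor of the pathway (1.76, SE 0.15, adjusted p = 0.000526), the receptor Tgfbr1 (0.78, SE 0.10, adjusted p = 0.00188) and the signal transducer Smad2 (0.46, SE 0.14, adjusted p = 0.0396). Acvr2b, the main myostatin receptor, changed by -0.23 (adjusted p = 0.209). Of 13 vascular genes 2 rose and 3 fell. Vhl, which directs HIF proteins to degradation, rose by 0.84 (adjusted p = 0.00227), Hif1a by 0.57 (adjusted p = 0.0132), and Vegfd fell by 0.50 (adjusted p = 0.0318). The VEGF receptor gene Kdr read 4.76 and 2.59 after AP20187 and 5.07 and 5.28 after vehicle, so that its log2 change of -1.50 (SE 0.56, adjusted p = 0.0832) rests on 1 array. Flt1 (0.25, adjusted p = 0.247) and the apelin receptor gene Aplnr (0.31, adjusted p = 0.304) did not pass.

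**Figure D4:**
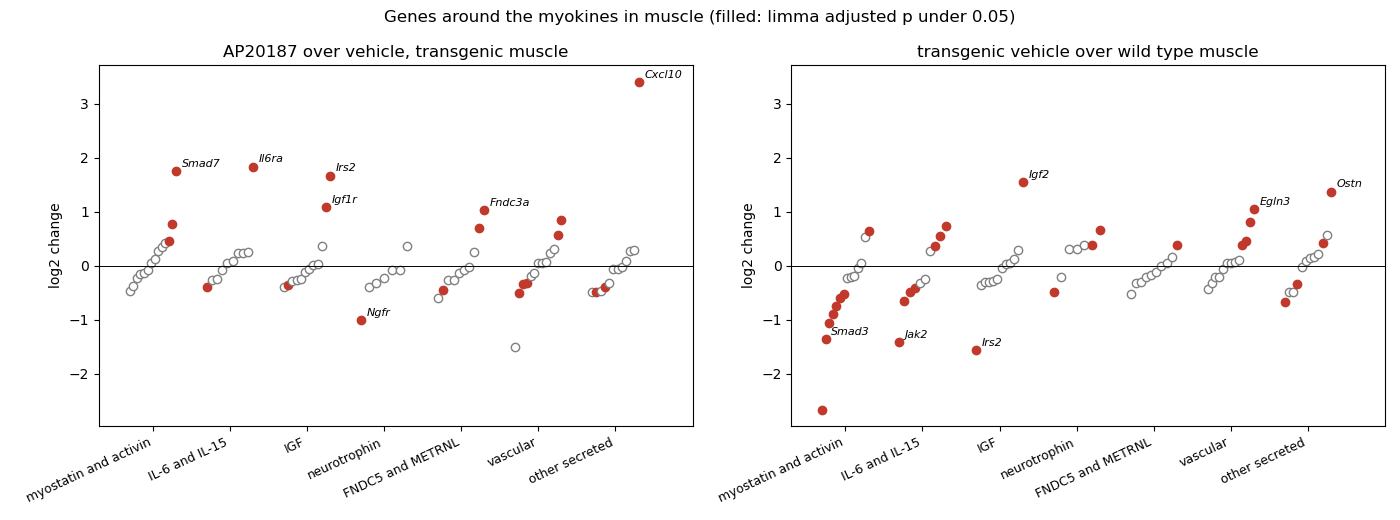
Log2 change of each tested gene in the 7 lists around the myokines, with AP20187 over vehicle in transgenic muscle on the left and transgenic vehicle over wild type muscle on the right, filled where the limma adjusted p was under 0.05. Smad7, Il6ra, Irs2 and Cxcl10 stand above the other genes with AP20187, followed by Igf1r and Fndc3a. Irs2 lies at the bottom of its list on the right.

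In the smaller lists, 1 neurotrophin gene of 7 passed with AP20187: Ngfr, the low-affinity neurotrophin receptor, fell by 1.00 (adjusted p = 0.0156). Ntrk2, the BDNF receptor, changed by -0.08 (adjusted p = 0.801). Of 10 genes around FNDC5 and METRNL, Fndc3b rose by 0.70 (adjusted p = 0.0116), Fndc4 fell by 0.44 (adjusted p = 0.0374) and Fndc3a was at least 1.82-fold higher, its vehicle arrays not being well above background. Itgav (-0.13) and Kit (-0.60), which encode receptor chains proposed for irisin and METRNL, did not pass (adjusted p = 0.639 and 0.212). Among 12 other secreted factors Cxcl10 rose by 3.41 (SE 0.59, adjusted p = 0.00602), to 2.61 and 0.33 after AP20187, against -1.95 and -1.92 after vehicle. Sparc fell by 0.48 (adjusted p = 0.00882) and Fstl1 by 0.38 (adjusted p = 0.0220). In the IL-6 and IL-15 list Lifr fell by 0.40 (adjusted p = 0.0249), and Il15ra changed by -0.08 (adjusted p = 0.544).

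Transgenic vehicle against wild type muscle called 14 of the 78 list genes higher and 15 lower (37.2%), again near the share of all genes (24.3% higher and 13.3% lower). With the percentile taken over detected probes this became 7 higher and 22 lower. Without wild type replicate 1 it was 6 higher and 9 lower, without wild type replicate 2 it was 8 and 8, and without transgenic vehicle replicate 2 it was 9 and 10. In the myostatin and activin axis 1 gene was higher and 7 were lower of 14, with 3 lower without either wild type array and 4 without transgenic vehicle replicate 2. One of the 7, Gdf11, named here after its values were seen, was not well above background in transgenic vehicle muscle and was tested only through the wild type arrays (at least 1.30-fold lower). Smad3, a transducer of myostatin and activin signals, was lower by 1.36 (SE 0.11, adjusted p = 0.000178), with 3.64 and 3.55 in transgenic vehicle muscle and 5.09 and 4.83 in wild type muscle. Smad7 fell by 0.90 (adjusted p = 0.00348), and Wfikkn2, which encodes a myostatin-binding protein, rose by 0.65 (adjusted p = 0.00300). The cytokine kinase genes Jak2 and Jak1 fell by 1.41 (adjusted p = 0.000186) and 0.65 (adjusted p = 0.00194). Il15ra, the receptor chain that presents IL-15, rose by 0.75 (adjusted p = 0.00102), with 4.37 and 4.52 in transgenic vehicle muscle and 3.70 on both wild type arrays.

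Irs2 fell by 1.55 (SE 0.15, adjusted p = 0.000406) in transgenic vehicle against wild type muscle, and Igf2 rose by 1.55 (SE 0.27, adjusted p = 0.00358). Igf2 read 0.69 and -0.01 in transgenic vehicle muscle and -0.93 and -1.49 in wild type muscle. Among the vascular genes Egln3, a HIF prolyl hydroxylase, rose by 1.06 (adjusted p = 0.000700), Vhl by 0.82 (adjusted p = 0.00151) and Vegfd by 0.46 (adjusted p = 0.0323). Ostn, the gene for the muscle peptide musclin, rose by 1.38 (SE 0.26, adjusted p = 0.00514). Bmp4 fell by 0.67 (adjusted p = 0.00532). The transgenic vehicle arrays enter both of these muscle comparisons, so that opposite signs for Irs2 and Smad7 share those 2 arrays.

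In C2C12 0 of 69 list genes passed with AP20187 by limma, and 13 had an unadjusted p under 0.05, while 0.640% of all genes passed. The difference between the muscle and C2C12 changes called 8 higher and 2 lower of 82 (12.2%, against 13.0% of all genes), including Il6ra (2.21, adjusted p = 0.00137), Irs2 (1.77, adjusted p = 0.00133) and Igf1r (1.23, adjusted p = 0.0221). The 2 lower, Wfikkn2 and Ntf3, were not well above background on any C2C12 array and were tested only through muscle. Their C2C12 side is thus a difference between background readings. In transgenic vehicle muscle against C2C12 vehicle 39 of 82 list genes were higher and 37 lower (92.7%, against 78.6% of all genes). Of these, 16 were not well above background in one of the groups.

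For the 7 genes detected on all 10 arrays, likeness was measured as the root mean square difference of centred log2 levels over the 10 arrays, among 9462 genes. It describes these 10 arrays, which differ in tissue, scan and treatment at once. Nearest to Fst were the tubulin gene Tubb4a (0.147) and Creld2 (0.189), to Vegfa Txnrd3 (0.104) and Lancl2 (0.116), and to Igf1 Extl2 (0.101) and Pcbp2 (0.136). Nearest to Bdnf were Mex3b (0.211) and Incenp (0.237), and to Apln Angptl2 (0.140) and Ermap (0.239). Fndc5 had the closest neighbours, Grcc10 (0.0691) and Lamtor4 (0.0734), and nearest to Metrnl were Acot9 (0.0978) and Rpl27a (0.103). For scale, the levels of Fst varied around their own mean by 1.32 and those of Igf1 by 0.307.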

How the data were processed

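Each array came as a scanner file of spot intensities on a linear scale, as the authors deposited it. The background had been subtracted with Agilent Feature Extraction 10.7.1.1, named in the submitters' processing notes. A deposited table of log2 values by the authors held the same arrays: 55681 of its 55821 lines belong to gene probes. Differences between its columns followed those of the scanner values at a correlation of 0.999772 or more, so its scale is log2 and its direction that of the scanner, while its centring is unknown. Medians of its columns were -0.37 and -0.57 for transgenic AP20187, -0.42 and -0.35 for transgenic vehicle, -0.46 and -0.45 for wild type, 0.80 and 0.77 for C2C12 AP20187, and 0.34 and 0.70 for C2C12 vehicle.

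Each array had 62976 spots, of which 3671 controls were left out, and no spot was saturated. Spots flagged as outliers (0.160% to 2.37% of gene spots per array) were left out but kept for the percentile. Spots of a probe were averaged. Values are log2 of the intensity minus the 75th percentile over 55681 gene probes. Symbols came from RefSeq accessions through a table of GRCm38.p6, used for names and promoters, while the array headers name mm9. A gene is its brightest probe by the mean over 10 arrays, with probes that have a value on every array preferred, and was tested where some group of the fit had it well above background on each of its arrays.

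Models were fitted with limma 3.58.1 and R 4.3.3 (lmFit, eBayes with a variance trend), on the 6 muscle arrays (3 residual degrees of freedom), the 4 C2C12 arrays (2) or all 10 (5), and were tested on simulated data. All 10 genes, 11 receptor genes and up to 3 called genes per list with the smallest p are named. The genes and lists were chosen with earlier results of these data known. Alternatives were background correction (normexp, offset 50), scaling, filter, flagged spots, probe rule, variance model, arrays in the fit, blocks and each array left out. Normexp used the median spot signal, since the mean signal is not a column of the files used here. Likeness has no test. The number of arrays limits the precision of all values.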

Additional observations from a re-analysis of the deposited data

Results flagged for a closer look

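For 3 genes the change with AP20187 differed between muscle and C2C12 in a test of the difference itself. The change in muscle minus the change in C2C12 was 1.35 for Bdnf, -0.82 for Igf1 and 0.98 for Fst, on the log2 scale. The Fst call held under all 22 alternatives, while Bdnf lost its call under 11 of 22 and Igf1 under 9 of 22. The Igf1 probes disagreed in direction, from -0.82 to 0.33. The causes of these differences were not tested.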

How the results depend on the processing

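Of 18 calls among the myokine genes, 10 kept their direction and call under all of the 20 to 22 alternatives run, 8 lost the call under at least 1, and 0 reversed. A further 7 genes and comparisons were called under at least 1 alternative, 15 times in all. The slide row as a block and leaving out transgenic vehicle 2 take out the same array, but are counted apart here. In transgenic vehicle against wild type muscle the count was 1 in place of 2 with probes averaged or with the slide row as a block. In C2C12 the count with AP20187 was 1 (Fst) in place of 0 with normexp, without the filter and with the replicate block. Over the arrays left out in turn, counts were 3 to 5 for AP20187 in muscle, 1 to 2 for transgenic vehicle against wild type, 0 to 1 in C2C12, 1 to 3 for the difference (1, Fst, without transgenic vehicle 1, either transgenic AP20187 array, C2C12 vehicle 2 or either C2C12 AP20187 array) and 7 to 9 for muscle against C2C12. The cause of each shift was not tested. The replicate numbers are shared by label alone, with correlations of 0.193 to 0.348 between same-numbered muscle arrays and 0.022 in C2C12. With the replicate block, Fst and Mstn (adjusted p = 0.0389) also passed with AP20187 in muscle and Fst in C2C12 (adjusted p = 0.00425), and Apln in transgenic vehicle against wild type muscle (adjusted p = 0.0491). The calls were then 6 (AP20187 in muscle), 3 (transgenic vehicle against wild type), 1 (C2C12), 3 (difference) and 9 (muscle against C2C12). No block by slide row could be fitted in C2C12. Calls over all genes with AP20187 in muscle were 3646, against 1849 with the row block, 1937 without transgenic vehicle 2 and 2256 without AP20187 1. For transgenic vehicle against wild type they were 5086, against 3187 with the row block, 3068 and 3298 without wild type 1 and 2, and 3259 without transgenic vehicle 2. In C2C12 they were 73, against 21 to 396, and for the difference 1836, against 991 to 3137. Taking the percentile over detected probes shifted the median of all genes by -0.15 for transgenic vehicle against wild type. It shifted the median by -0.24 for muscle against C2C12 and by -0.10 for the difference. Taking it over unflagged probes, an alternative chosen after seeing the data, shifted C2C12 by 0.19, where 130 were higher and 14 lower in place of 38 and 35, and the difference by -0.19. Another chosen then, over spots, left the called members' directions as they were.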
